A study of Mus musculus with 24 samples.

Results

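Small nuclear RNAs, small nucleolar RNAs (snoRNAs), their Cajal body relatives (scaRNAs) and the Snhg genes, which are host transcripts of snoRNAs, were followed in mouse cortex after a transient stroke. Members were chosen by symbol alone: all rows whose symbol starts with Snora, Snord, Scarna, Rnu or Snhg, or equals Rn7sk, Rmrp, Rpph1 or Terc. No measured value enters the choice beyond a gene being listed, although the family was put forward with earlier results of these data known. It found 45 genes among the 14769 listed in any of 4 deposited tables. They are 16 box C/D snoRNAs, of which 5 are copies of U3, 8 box H/ACA snoRNAs, 5 scaRNAs, 12 Snhg genes, the snRNAs Rnu11 and Rnu12, and the single RNAs Rn7sk and Rpph1. The 33 small RNAs are 67 to 414 nt long, and the exons of the Snhg genes span 183 to 26093 nt. 41 members are in every table and 4 are in 2 tables each: Snora9 and Snord89 where PI KO is compared, Snord47 where CL KO is compared, and Snord3b4 where PI WT is compared. No row has the symbol Rmrp or Terc.

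Total RNA came from cortex. All mice were males, 3 to 4 months old, and had the middle cerebral artery occluded for 1 h and then reperfused for 1 day, so that no group is free of surgery. One genotype was wild type (WT) and the other a knockout (KO) of ciRS-7, the circular RNA of the Cdr1as locus; the strain label C57BL/6N-Cdr1asem1Nikr is attached to both genotypes. Each of 6 WT and 6 KO mice gave a sample marked CL and a sample marked PI, which makes 4 groups of 6 and 24 libraries; the labels do not spell out the marks. 600 ng of RNA was depleted of ribosomal RNA and made into libraries with a total RNA kit, so short RNAs were read without a size selection meant for them. The deposited unit is log2 CPM, the log2 of a gene's reads scaled to a common library total, and each table holds the 12 libraries of 1 comparison, scaled on its own. Values are therefore set against each other within a table.

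SnoRNAs guide chemical modification of other RNAs: box C/D RNAs direct the methylation of ribose and box H/ACA RNAs the change of uridine to pseudouridine, mainly in ribosomal RNA, while scaRNAs do the same for spliceosomal snRNAs in Cajal bodies. In mammals most snoRNAs are cut from introns of a host gene, many of which encode ribosomal proteins or are the noncoding Snhg genes, whereas U3, Rn7sk, Rpph1 and the snRNAs are transcribed from promoters of their own. U3 and U17 (Snora73a and Snora73b) act in the cleavage of the ribosomal RNA precursor rather than as guides, and the brain also makes a large set of snoRNAs from the imprinted Snrpn and Snhg14 region.

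The small RNAs the results turn on are printed below, to show how alike the copies are and which letters mark each class. All are read 5′ to 3′ from the GENCODE M21 transcripts on GRCm38, the assembly that mm10 names. U3 copies come first, since Snord3b-ps1 carries the largest called change between sides in WT and Snord3a is called there too. Capitals mark box C (TGATGA) and box D (CTGA), the letters at which box C/D proteins assemble, in Snord3a (chr10:40258467-40258679, plus strand), Snord3b-ps1 (chr19:4078298-4078512, minus strand), Snord3b1 (chr11:87443237-87443451, plus strand) and Snord94 (chr6:71882557-71882693, minus strand).
Snord3a: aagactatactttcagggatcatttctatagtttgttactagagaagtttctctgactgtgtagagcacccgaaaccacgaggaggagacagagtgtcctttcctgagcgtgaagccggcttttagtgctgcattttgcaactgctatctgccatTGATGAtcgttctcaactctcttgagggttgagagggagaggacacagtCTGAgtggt
Snord3b-ps1: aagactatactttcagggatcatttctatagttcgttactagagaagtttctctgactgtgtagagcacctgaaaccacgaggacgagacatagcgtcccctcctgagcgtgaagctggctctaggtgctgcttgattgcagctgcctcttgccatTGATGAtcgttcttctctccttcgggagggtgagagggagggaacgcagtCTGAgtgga
Snord3b1: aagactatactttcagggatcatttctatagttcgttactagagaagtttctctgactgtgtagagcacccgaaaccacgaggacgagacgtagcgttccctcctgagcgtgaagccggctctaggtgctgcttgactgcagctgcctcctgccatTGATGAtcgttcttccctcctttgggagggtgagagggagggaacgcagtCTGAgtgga
Snord94: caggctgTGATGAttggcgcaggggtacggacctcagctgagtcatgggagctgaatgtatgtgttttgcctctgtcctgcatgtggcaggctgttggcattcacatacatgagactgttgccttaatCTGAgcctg
Both TGATGA and CTGA, searched on the RNA strand, were found in 15 of 16 box C/D members, in none of 8 box H/ACA members and in 25.2% of 1507 annotated mouse snoRNAs. Snord3b1 and Snord3b3 are identical and Snord3b4 is 99.54% identical to them, whereas Snord3b-ps1 differs from Snord3b1 at 8 positions (96.28% identity) and Snord3a differs from Snord3b-ps1 at 30 (86.05%).

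The 2 copies of U17, Snora73a (chr4:132352775-132352979, minus strand) and Snora73b (chr4:132352322-132352526, minus strand), lie side by side in their host gene Snhg3 and differ at 7 positions (96.59% identity). Capitals mark ACA 3 bases before the end, the letters that name the H/ACA class.
Snora73a: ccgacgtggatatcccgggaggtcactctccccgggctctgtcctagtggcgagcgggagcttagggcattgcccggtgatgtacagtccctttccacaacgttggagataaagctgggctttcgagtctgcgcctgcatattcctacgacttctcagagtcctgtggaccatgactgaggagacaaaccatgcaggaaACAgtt
Snora73b: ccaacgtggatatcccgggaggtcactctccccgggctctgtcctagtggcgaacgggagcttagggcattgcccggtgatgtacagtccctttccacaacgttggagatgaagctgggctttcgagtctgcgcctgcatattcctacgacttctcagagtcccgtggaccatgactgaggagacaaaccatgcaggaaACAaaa
ACA at that place was found in 7 of 8 box H/ACA members and in 18.3% of annotated snoRNAs. The snRNAs of the minor spliceosome, Rnu11 (chr4:132270080-132270213, minus strand) and Rnu12 (chr15:83149644-83149794, plus strand), are shown with ATTTTTG or ATTTTTTG in capitals, the letters of the site on which Sm proteins assemble.
Rnu11: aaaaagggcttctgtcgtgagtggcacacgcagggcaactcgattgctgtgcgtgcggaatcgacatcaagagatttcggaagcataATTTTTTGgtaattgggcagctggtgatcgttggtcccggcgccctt
Rnu12: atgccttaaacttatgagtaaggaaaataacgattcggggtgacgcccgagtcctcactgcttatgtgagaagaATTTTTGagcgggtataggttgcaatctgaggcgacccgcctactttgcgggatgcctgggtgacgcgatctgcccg
Both snRNA members hold these letters, as do 4.7% of 1383 annotated snRNA genes. Of Rn7sk (331 nt), the most abundant member, the first 100 bases are shown (chr9:78175534-78175633, minus strand). They come from the 5′ stem where the inhibitor Hexim binds. Only the first 2 GATC are in capitals, and a later GATC is left in lower case, so the capitals do not outline the binding site.
Rn7sk: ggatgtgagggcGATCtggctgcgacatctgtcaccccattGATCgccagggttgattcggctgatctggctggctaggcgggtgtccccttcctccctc

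The targeted gene was read first. The deposited values of Cdr1as lay between 11.3 and 11.9 log2 CPM in the WT libraries of the 3 tables that list it. Those of the KO libraries were at no more than 0.166 CPM, below the 3-read limit. Depth, recovered from the steps of whole reads in low values, was 3732000 to 10492000 reads per library (median 6906000), and 3 reads were worth 0.286 to 0.804 CPM. CL KO replicate 6 had the lowest depth. In every gene the 2 lowest and the 2 highest values of each group were tied, so the deposited lowest and highest values of a group stand for its quartiles; no label records this step. The lowest, median and highest values given here are those deposited values. Groups said to be apart, not to overlap or to lie wholly above another are so in these values, and their outermost libraries may still overlap. 4 of the 6 values of a group can be recovered; a change is the difference of the means of those 4 on the log2 scale, given with its standard error (SE). A member was called at an adjusted p under 0.05 in a moderated trimmed-mean test with limma's variance shrinkage and Benjamini-Hochberg adjustment over all genes of the table.

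Single libraries held the low or the high end of a group for most small RNAs. CL WT replicate 6 was at the tied low end for 21 of 30 small RNAs, where it was at the low end for 30.3% of all genes. PI KO replicate 6 was at the low end for 28 of 32 small RNAs and PI KO replicate 4 for 19, against 38.1% and 34% of all genes. PI KO replicate 1 was at the high end for 22 of 32, against 37.7% of all genes. The part of these libraries in the results was not tested beyond leaving each out, and values without them stand beside the results below.

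**Figure D1:**
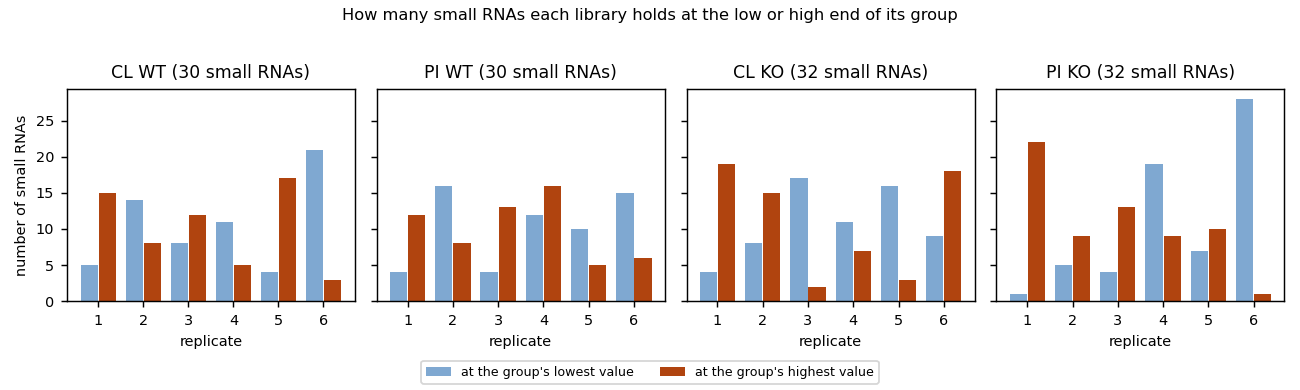
Number of small RNA members at the tied low end and at the tied high end of their group, for each library of the tables that compare PI with CL. CL WT replicate 6 (21 of 30) and PI KO replicate 6 (28 of 32) stand at the low end, and PI KO replicate 1 (22 of 32) at the high end.

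Levels spanned several orders within the family. Per kilobase of exon, Rn7sk was the highest member, at a median of 14.2 log2 CPM per kb in CL WT, followed by Rpph1 at 12.0 log2 CPM per kb. Rn7sk holds the elongation factor P-TEFb inactive, and Rpph1 is the RNA of RNase P, which trims the 5′ ends of tRNAs. Scarna10, also known as U85, led the scaRNAs at 9.27 log2 CPM per kb, Snord3a the box C/D RNAs at 8.09, Snhg11 the host genes at 7.77, Rnu12 the snRNAs at 7.31 and Snora74a the box H/ACA RNAs at 7.26. Rnu12 and Snord3b-ps1, neighbours in that order at 7.31 log2 CPM per kb each, did not differ beyond the spread of their libraries. Among members with a median above the 3-read limit, Snhg17 and Snhg16 were lowest, at -0.24 and -0.34 log2 CPM per kb; the U3 copies Snord3b3 and Snord3b4 had medians under that limit.

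Between sides in WT mice, 8 of 42 members were higher in PI than in CL and none was lower, where 10.6% of all genes were called, 5.2% higher and 5.4% lower. The 8 are the U3 copies Snord3b-ps1 and Snord3a, the box H/ACA RNA Snora74a, the box C/D RNA Snord94, the snRNA Rnu11 and the host genes Snhg17, Snhg5 and Snhg3. Increases ran from 1.21-fold (Snhg3) to 2.19-fold (Snord3b-ps1). The median change over all 42 members was 0.22 on the log2 scale, with 27 above 0, against 0.01 over all genes, of which 52.3% were above 0. At an unadjusted p under 0.05, 14 members passed as higher and 1 as lower (11.9% and 12.1% of all genes, 23.9% in all), and 15 of 42 had groups that did not overlap, against 32.8% of all genes. limma on the deposited values, whose ties understate the spread, called 23 members and 44.6% of all genes. These are bulk samples, in which fewer cells of a type and less RNA per cell cannot be told apart.

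The largest called change was that of the U3 copy Snord3b-ps1, which read 4.78, 5.09 and 5.23 log2 CPM in CL WT (lowest, median and highest) and 5.94, 6.21 and 6.35 in PI WT. The groups did not overlap, and the difference was 1.13 ± 0.17 on the log2 scale (SE, adjusted p = 0.0010). Snord3a, the most abundant copy in CL WT by its median, read 5.66, 5.86 and 6.01 log2 CPM in CL WT and 6.36, 6.61 and 6.83 in PI WT, a 1.69-fold increase (log2 0.76 ± 0.15, adjusted p = 0.0058). Its groups did not overlap either. Reads of the nearly identical copies Snord3b1, Snord3b3 and Snord3b4 could be assigned to any of them: each stood at the table's floor or near it in 2 to 4 libraries of at least 1 group in WT, and the SE of their changes was 3.59 to 5.38, so their values are uncertain. How reads that match several copies were counted is not given in the sources used here, which also bears on Snord3a and Snord3b-ps1.

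Among the guide RNAs, Snora74a, also known as U19, read 4.84, 4.91 and 5.05 log2 CPM in CL WT and 5.32, 5.38 and 5.49 in PI WT. It was 1.38-fold higher in PI, with no overlap (log2 0.46 ± 0.09, adjusted p = 0.0063). Snord94, which guides methylation of the U6 snRNA, read 1.64, 1.70 and 1.84 in CL WT against 2.19, 2.32 and 2.55 in PI WT (1.54-fold, log2 0.62 ± 0.18, adjusted p = 0.045). All its deposited PI values lay above its deposited CL values. The box H/ACA RNAs as a class had a median change of 0.33 with 5 of 7 above 0, and the box C/D RNAs other than U3 had a median of 0.11 with 7 of 9 above 0.

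The uncalled guides spread in both directions. Snora73b (U17) read 3.19, 3.36 and 3.68 log2 CPM in CL WT and 3.76, 4.06 and 4.27 in PI WT, apart but not called (log2 0.62 ± 0.20, adjusted p = 0.068). Snora73a, its neighbour, differed by 0.25 ± 0.12 (adjusted p = 0.25), with overlap. Snora30 had the largest positive value of its class, 0.86 ± 0.39 (adjusted p = 0.20), and Snora21 and Snora68 the most negative, -0.18 ± 0.37 and -0.15 ± 0.27. For box C/D, Snord22 (U22, needed for the small ribosomal subunit RNA) stood at 1.03 ± 0.39 (adjusted p = 0.12), and Snord49a and Snord82 at -0.53 ± 0.32 and -0.36 ± 0.26, all of them uncalled.

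The scaRNAs and the abundant single RNAs gave small values. The 5 scaRNAs had a median change of -0.12, and 1 of 5, Scarna6, lay above 0 (0.06 ± 0.12). Scarna10 read 7.49, 7.65 and 7.85 log2 CPM in CL WT and 7.41, 7.47 and 7.59 in PI WT, a difference of -0.17 ± 0.11 (adjusted p = 0.37), and Scarna13 differed by -0.15 ± 0.10. Rn7sk read 12.51, 12.60 and 12.85 in CL WT and 12.60, 12.67 and 12.73 in PI WT, with overlapping groups and a difference of 0.01 ± 0.10. Rpph1 differed by -0.01 ± 0.08, at 10.33 and 10.34 log2 CPM in the middle of the 2 groups.

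Rnu11, the U11 RNA that recognises the 5′ splice site of minor introns, read 1.06, 1.26 and 1.46 log2 CPM in CL WT and 1.94, 1.97 and 2.06 in PI WT (1.66-fold, log2 0.73 ± 0.20, adjusted p = 0.033). The deposited PI values lay close together, above all deposited CL values. Rnu12, the U12 RNA that pairs with the branch site of those introns, read 4.11, 4.58 and 4.67 against 4.72, 5.04 and 5.28 (log2 0.56 ± 0.22, adjusted p = 0.13). Its groups were apart, but it was not called without the pairing of animals; with it, Rnu12 and Snora73b were called (adjusted p = 0.015 and 0.042) and Snhg3 was not (0.082), where 10.9% of all genes were called.

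Of the 12 Snhg genes, 3 were called higher and none lower, where 5.2% and 5.4% of all genes were. Their median change was 0.23, with 7 above 0 and 5 below. Snhg17, a host of the Snora71 family, read 2.51, 2.58 and 2.80 log2 CPM in CL WT and 3.17, 3.55 and 3.61 in PI WT (1.76-fold, log2 0.82 ± 0.18, adjusted p = 0.011). Snhg5, the host of Snord50, read 1.83, 1.89 and 2.02 against 2.48, 2.68 and 2.87 (1.69-fold, log2 0.76 ± 0.17, adjusted p = 0.014). Both hosts had all deposited PI values above all deposited CL values, where 32.8% of all genes had groups apart. No snoRNA of theirs is among the members. Snhg3, the U17 host, read 4.53, 4.62 and 4.68 against 4.81, 4.92 and 4.92, apart by a smaller step (1.21-fold, log2 0.28 ± 0.08, adjusted p = 0.048). The most negative hosts were Snhg9 at -0.33 ± 0.33 and the neuronal, imprinted Snhg14 at -0.20 ± 0.07 (adjusted p = 0.074).

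Snord3b-ps1, Snord3a, Snora74a, Snhg17 and Snhg5 were called with any 1 of the 12 libraries left out. Rnu11 was called only without PI WT replicate 4, CL WT replicate 2 or CL WT replicate 6, with adjusted p = 0.037 to 0.078 over the 12 fits, Snhg3 only without PI WT replicate 2 or 5 (0.033 to 0.11), and Snord94 only without PI WT replicate 2 or 6 (0.035 to 0.097). 5 members were called without PI WT replicate 1 or 3, or without CL WT replicate 4 or 5. Without CL WT replicate 6, 6 members were called. Shares of all genes called in these fits are not given here, so the counts are not read as particular to the members. The box H/ACA median was 0.21 to 0.41 over the 12 fits, lowest without PI WT replicate 4. The median of box C/D RNAs other than U3 was 0.01 without PI WT replicate 1, 0.21 without CL WT replicate 1 or 3 and 0.22 without PI WT replicate 2 or 6.

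**Figure D2:**
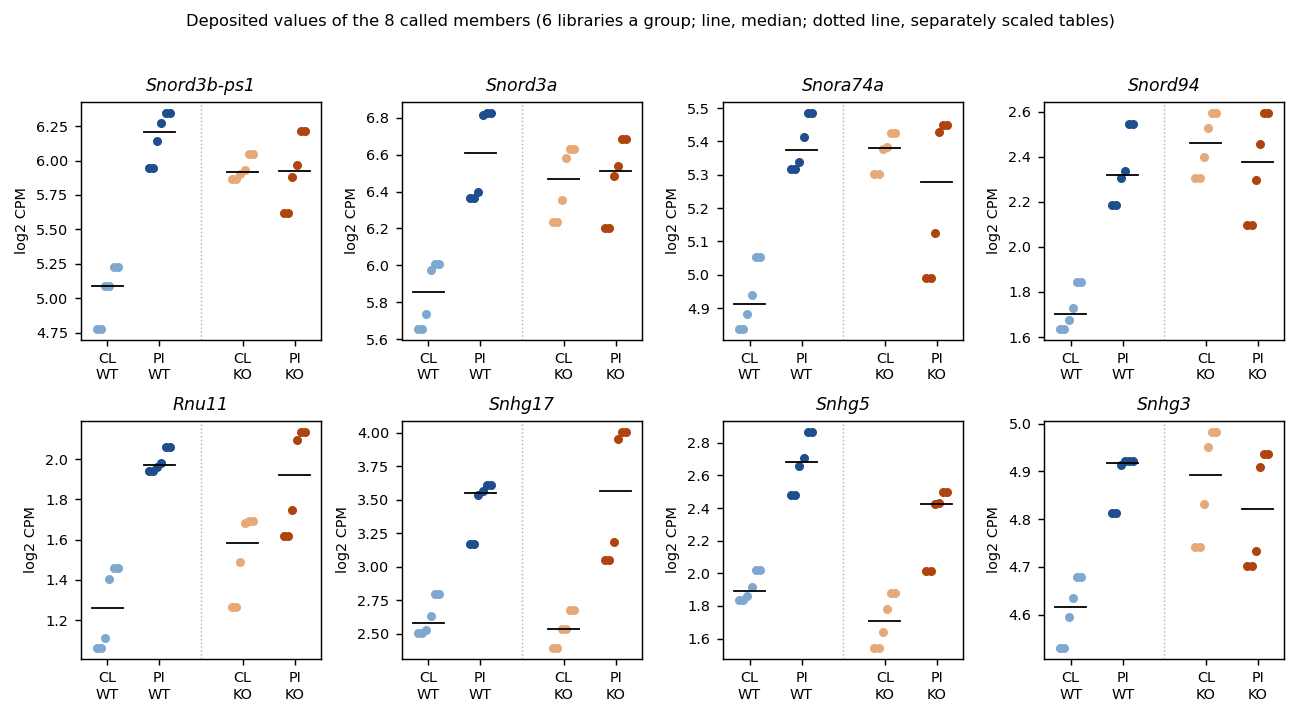
Deposited log2 CPM of the 8 members called in any comparison, for CL and PI libraries of each genotype; each point is a library, the line is the group's median, and WT and KO come from separate tables. In WT the PI points of all 8 lie above the CL points, and in KO this is so for Snhg17 and Snhg5.

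Between sides in KO mice, 1 of 44 members was called, Snhg17, which was higher in PI; 10% of all genes were called there, 5.11% higher and 4.94% lower. Snhg17 read 2.40, 2.54 and 2.68 log2 CPM in CL KO and 3.05, 3.57 and 4.01 in PI KO, with no overlap (log2 1.00 ± 0.27, adjusted p = 0.032). It was not called without PI KO replicate 2, 3 or 5 or any 1 of CL KO replicates 1 to 5 (adjusted p = 0.012 to 0.099 over the 12 fits). The count of called members was 3 without PI KO replicate 1, 4 without PI KO replicate 4, 5 without PI KO replicate 6 and 2 without CL KO replicate 6, and 0 or 1 without any other library. The share of all genes called in those fits is not given here, so these counts are not read as particular to the members. At an unadjusted p under 0.05, 5 members passed as higher and 4 as lower (12.1% and 12.7% of all genes, 24.9% in all), 18 of 44 had a change above 0 (49.9% of all genes), and 11 had groups apart (34.3%). limma on the deposited values called 17 members and 46.5% of all genes. With animals paired, 9.39% of all genes and 4 members were called: Snhg17 (adjusted p = 0.041), Snhg12 (0.049) and Rpph1 (0.044) higher, and Snhg14 (0.045) lower.

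The other members called in WT gave these values in KO. Snord3b-ps1 read 5.86, 5.92 and 6.05 log2 CPM in CL KO and 5.62, 5.92 and 6.22 in PI KO, overlapping, with a difference of -0.02 ± 0.17. Snord3a read 6.23, 6.47 and 6.63 against 6.20, 6.51 and 6.68 (0.02 ± 0.17). Snora74a stood at 5.38 in the middle of CL KO and 5.28 in that of PI KO (-0.13 ± 0.13), and Snord94 at 2.46 and 2.37 (-0.10 ± 0.20), each with overlap. Rnu11 read 1.27, 1.58 and 1.69 against 1.62, 1.92 and 2.14 (0.38 ± 0.24, adjusted p = 0.37). Snhg5 read 1.54, 1.71 and 1.88 against 2.01, 2.43 and 2.50, with no overlap but no call (0.60 ± 0.23, adjusted p = 0.11), and Snhg3 differed by -0.05 ± 0.11.

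As classes, the guide RNAs leaned to negative values in KO. All 8 box H/ACA RNAs were below 0, with a median of -0.24, and 8 of 11 box C/D RNAs other than U3 were below 0, with a median of -0.25; the median over all genes was -0.0007. None was called. The most negative of these guides were Snord87 at -0.84 ± 0.34 (adjusted p = 0.15), Snora30 at -0.64 ± 0.46, Snord47 at -0.44 ± 0.36 and Snora9 at -0.39 ± 0.46, and the most positive were Snord89 and Snord49a, at 0.02 each. Without PI KO replicate 6, or without PI KO replicate 4, the box H/ACA median was -0.11 with 2 of 8 above 0, and 2 of 8 were also above 0 without CL KO replicate 1 or 2. The box C/D median was -0.12 without PI KO replicate 6, -0.10 without CL KO replicate 2 and -0.11 without CL KO replicate 6. The scaRNAs had a median of 0.03 with 4 of 5 above 0, from Scarna2 at 0.16 ± 0.15 and Scarna6 at 0.06 ± 0.12 to Scarna13 at -0.20 ± 0.11. Rnu12 stood at -0.27 ± 0.20.

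Rn7sk differed between sides by 0.15 ± 0.09 in KO and Rpph1 by 0.20 ± 0.08 (adjusted p = 0.15), the latter at 10.15 log2 CPM in the middle of CL KO and 10.34 in that of PI KO, with groups apart. Snhg15 had the largest positive value among the hosts, 1.32 ± 0.50 (adjusted p = 0.12), with 2 CL KO libraries at or under the 3-read limit. Snhg11, a neuronal host RNA, read 10.76, 10.79 and 10.94 against 10.36, 10.38 and 10.68 (-0.36 ± 0.11, adjusted p = 0.067), and Snhg14 differed by -0.24 ± 0.07 (adjusted p = 0.057). Both had groups apart and missed the threshold. The U3 copy Snord3b1 stood at -1.74 ± 0.64 (adjusted p = 0.11), under the same doubt about shared reads.

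**Figure D3:**
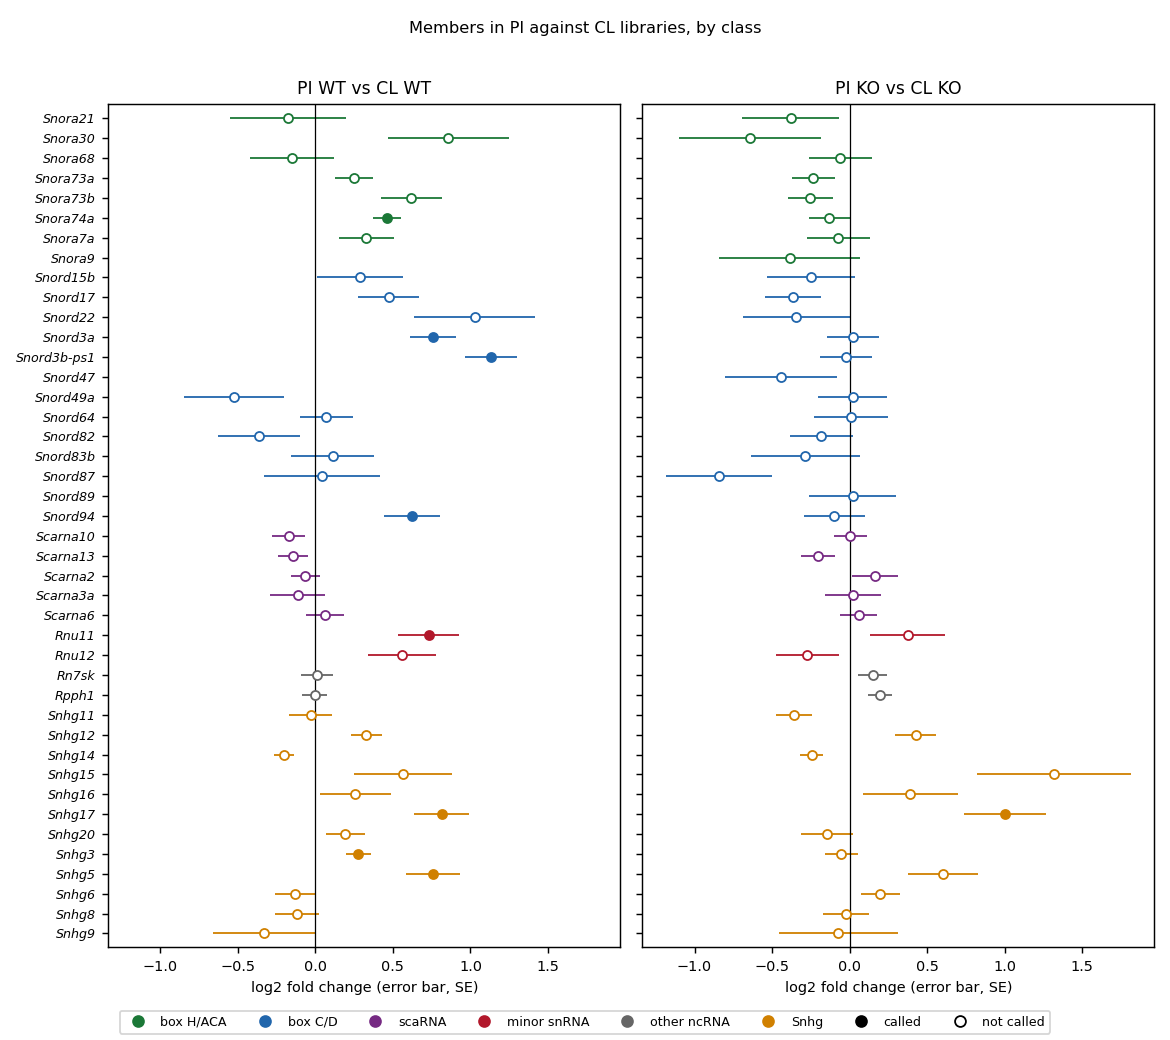
Change between PI and CL (log2 fold change ± SE) for the members in WT and in KO; filled points are called, and the U3 copies Snord3b1, Snord3b3 and Snord3b4 are left out for their large SE. In WT 8 filled points lie right of 0, and in KO 1, Snhg17, does.

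Whether the difference between sides itself differs between genotypes was tested over all 24 libraries in the 14211 genes of both tables. None of 41 members was called, nor was any gene (0% of all genes). At an unadjusted p under 0.05, 11 members passed, all of them lower in KO, where 2.55% of all genes passed in that direction and 4.55% in all, and limma on the deposited values called 15 members and 13.7% of all genes. The smallest p was that of Snord3b-ps1, at -1.15 ± 0.27 (unadjusted p = 0.00032, adjusted p = 0.99), followed by Snora74a, -0.59 ± 0.17, and Snora73b, -0.87 ± 0.27. Among the 11, Snora30 and Snord22 had larger steps with larger errors, -1.50 ± 0.63 and -1.37 ± 0.54. The others were Snord3a, Snord17, Snord94, Snord22, Rnu12, Snora73a, Snhg3 and Snora30, named after their values were seen. 16 of 41 members had a value above 0, against 49.9% of all genes. Snhg17 and Snhg5 gave 0.19 ± 0.35 and -0.16 ± 0.29.

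Between genotypes on the CL side, none of 42 members was called, where 0.0279% of all genes were. 12 members passed an unadjusted p under 0.05, all higher in KO, where 3.16% of all genes passed in that direction and 5.73% in all; limma on the deposited values called 15 members and 16.1% of all genes. The CL WT libraries used here are also those of the comparison between sides in WT, so a low level in them enters both, and the values are given side by side without being counted as 2 observations. Snord3b-ps1 read 4.75, 5.05 and 5.19 log2 CPM in CL WT and 5.84, 5.89 and 6.02 in CL KO (log2 0.92 ± 0.14, adjusted p = 0.060). Its groups were apart, and it was called without CL WT replicate 1, 2, 4 or 6, while Snord3b1 was called without CL WT replicate 3 or 4. At a pseudocount of 0.5 CPM, Snord3b-ps1 was called as well (adjusted p = 0.048).

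Snora74a read 4.81, 4.88 and 5.02 log2 CPM in CL WT and 5.28, 5.35 and 5.40 in CL KO (0.44 ± 0.09, adjusted p = 0.27), and Snord3a read 5.62, 5.82 and 5.97 against 6.21, 6.44 and 6.61 (0.61 ± 0.14, adjusted p = 0.45). In both, all deposited KO values lay above all deposited WT values. By class, all 7 box H/ACA RNAs and 8 of 10 box C/D RNAs other than U3 were above 0, with medians of 0.44 and 0.51, against -0.002 over all genes. The box H/ACA median was 0.41 to 0.50 with each library left out in turn, and 7 of 7 were above 0 each time. The scaRNAs had a median of 0.01 and the Snhg genes one of -0.07, with 5 of 12 above 0. 28 of 42 members were above 0 (49.2% of all genes), and 13 of 42 had groups apart (13.5% of all genes).

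On the PI side, none of 44 members was called between genotypes (0.0208% of all genes), 3 passed an unadjusted p under 0.05 (5.75% of all genes), and limma on the deposited values called 10 members and 16.5% of all genes. The 3 with a small unadjusted p were Snord82, which lies in an intron of the nucleolin gene, Snhg20 and Snora68. Snord82 read 1.48, 1.69 and 1.94 log2 CPM in PI WT and 2.11, 2.30 and 2.39 in PI KO (0.57 ± 0.21, adjusted p = 0.85), with no overlap. Snhg20 was at 3.41 in the middle of PI WT and 3.06 in that of PI KO (-0.40 ± 0.17), and Snora68 at 2.52 and 3.10 (0.49 ± 0.22), both at an adjusted p of 0.85. The median change over the members was 0.01, with 23 of 44 above 0 (48.5% of all genes) and 4 of 44 apart (14.1%). Rn7sk stood at 0.10 ± 0.09 on this side and at -0.04 ± 0.10 on the CL side, and Rpph1 at -0.01 ± 0.06 and -0.20 ± 0.10.

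**Figure D4:**
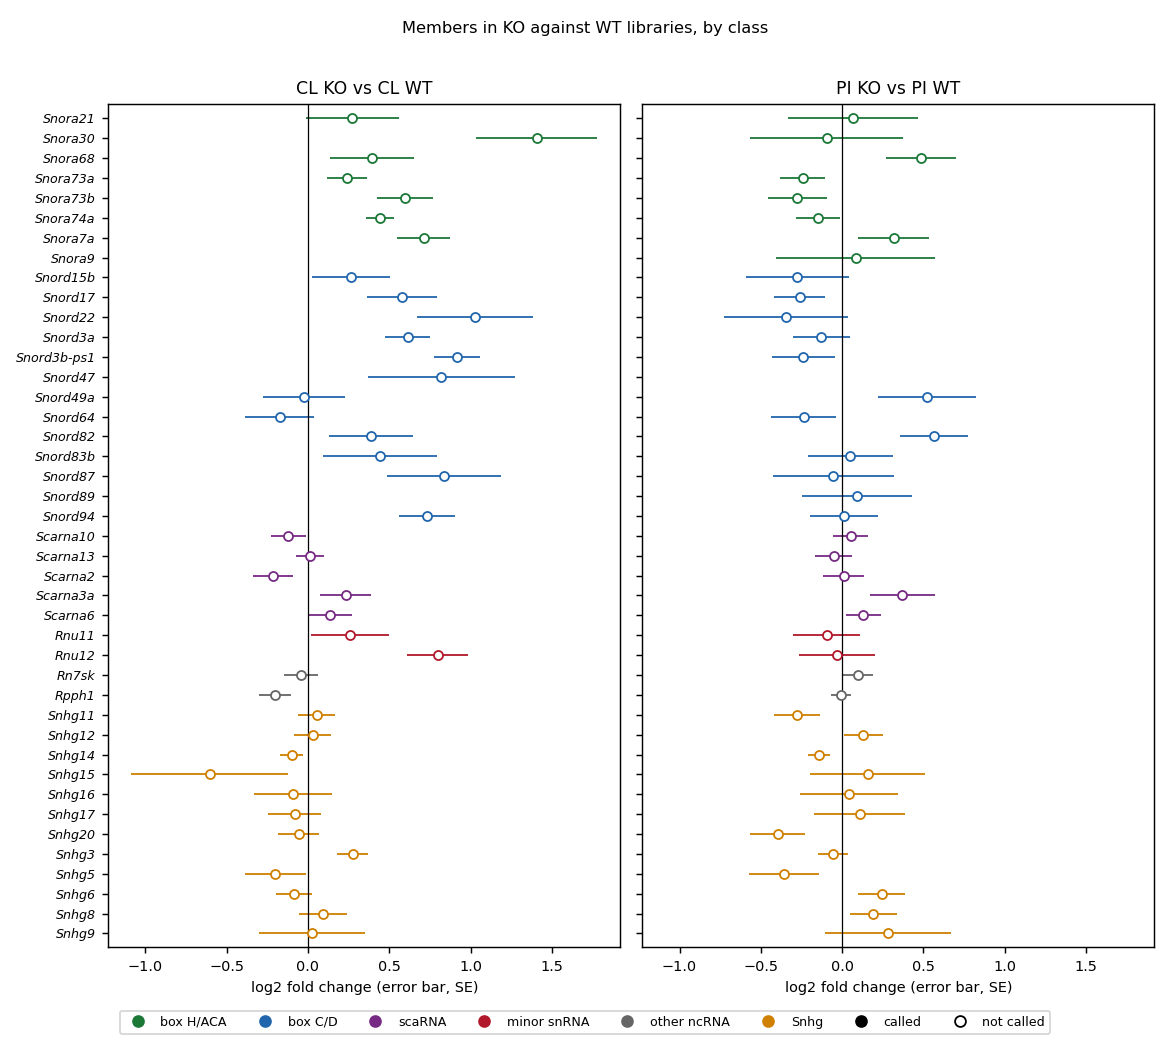
Change between KO and WT (log2 fold change ± SE) for the members on the CL side and on the PI side, with no member called in either. The U3 copies Snord3b1, Snord3b3 and Snord3b4 are left out of the plot. Counted with them, 28 of 42 members were above 0 on the CL side, and 23 of 44 on the PI side.

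Host genes were set beside the small RNAs they enclose. The GENCODE M21 annotation places 26 of 33 small RNAs within another gene, 6 of them in Snhg genes, and leaves 7 alone. 8 of the 26 overlap an exon of a host in full and 3 in part, so reads of host and small RNA cannot be told apart there; strand use in the counting is not given in the sources used here, so the same holds for genes on opposite strands. 3 Snhg members enclose a listed small RNA. Snhg3 and its U17 copies Snora73a and Snora73b stood at 0.28, 0.25 and 0.62 between sides in WT, and at -0.05, -0.23 and -0.25 in KO. Snhg6 and Snord87 stood at -0.13 ± 0.13 and 0.04 ± 0.37 in WT and at 0.20 ± 0.13 and -0.84 ± 0.34 in KO, none called. Snhg15 and Snora9, compared in KO only, stood at 1.32 ± 0.50 and -0.39 ± 0.46.

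Over all pairs with both genes listed, the small RNA had the higher change in 13 of 20 pairs between sides in WT and in 5 of 23 in KO. These pairs hold 17 small RNAs in WT and 20 in KO, since Snora73a, Snora73b and Snora30 are each counted with 2 hosts. In KO 7 of 21 hosts were called and none of their small RNAs was, where 10% of all genes were called (5.11% higher and 4.94% lower). Hosts and small RNAs also differ in SE, as 0.07 for Gas5 and 0.36 for Snord47, and the difference between a host and its small RNA was not tested. 6 of these hosts rose in PI, among them Gas5 (0.36 ± 0.07, adjusted p = 0.0068), a noncoding host whose Snord47 stood at -0.44 ± 0.36, 2410006H16Rik (0.81 ± 0.16, adjusted p = 0.0085), with Snord49a at 0.02 ± 0.23, the ribosomal protein genes Rpl32 and Rps3 (0.34 and 0.29), and Ncl (0.21). Gm38393, the host of Snord64, fell by 0.35 on the log2 scale (adjusted p = 0.0079). In WT 2 of 18 hosts were called, Snhg3 and Rpl32 (0.25 ± 0.07, adjusted p = 0.030), where 10.6% of all genes were. The 1 called small RNA of a listed host was Snord94, at 0.62 against 0.16 ± 0.07 for Ptcd3. Between genotypes on the CL side the small RNA was above its host in 17 of 21 pairs, with no gene of either kind called. The 7 small RNAs outside any host had 3 calls and a median of 0.56 between sides in WT, and the 23 hosted ones 2 calls and a median of 0.11. All these calls were higher in PI, where 5.2% of all genes were called higher. The 3 calls are those of Snord3a, Snord3b-ps1 and Rnu11. A host is given by position alone, so the hosted ones include the uncertain U3 copies Snord3b1, Snord3b3 and Snord3b4, and host and RNA class cannot be told apart here.

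**Figure D5:**
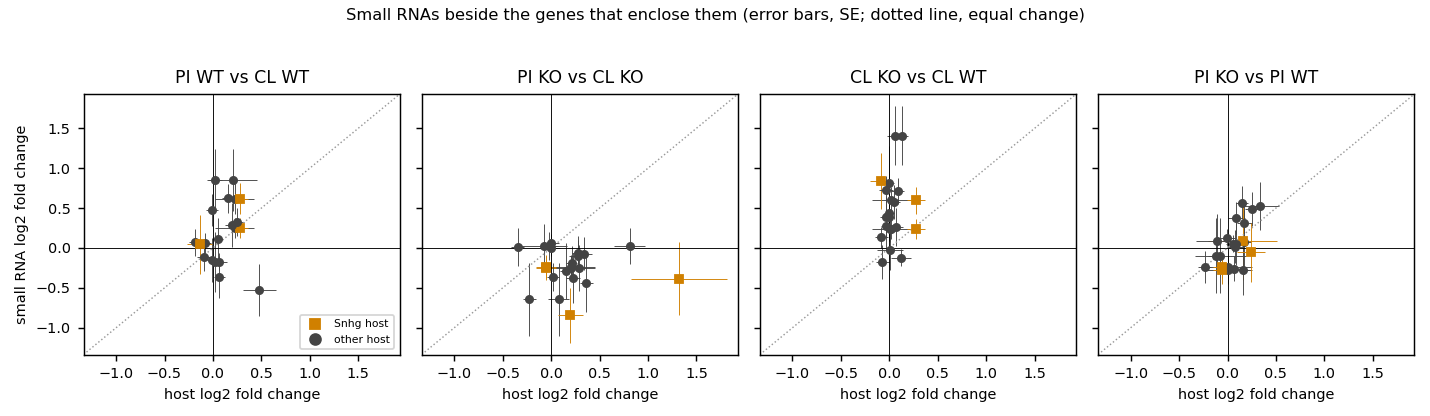
Change of each small RNA (vertical axis, log2 fold change) against that of its host gene (horizontal axis), 1 panel for each comparison, with a line of equal change. The small RNA lies above the line in 13 of 20 pairs for PI WT vs CL WT, 5 of 23 for PI KO vs CL KO, 17 of 21 for CL KO vs CL WT and 9 of 22 for PI KO vs PI WT. Small RNAs with more than 1 listed host appear with each of them.

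The proteins that carry these RNAs gave few calls, where 10.6% of all genes were called between sides in WT and 10% in KO. Between sides in WT, 1 of 6 box H/ACA proteins and assembly factors rose, Dkc1, the pseudouridine synthase (0.31 ± 0.09, adjusted p = 0.043), and none of 11 for box C/D, 10 for the Cajal body and SMN complex, 28 Sm and U snRNP proteins, 7 of the 7SK particle, 10 of RNase P and MRP, 11 for snRNA transcription and 3′ processing or 10 of nonsense-mediated decay was called. In KO, Ruvbl2, a box C/D assembly factor (0.51 ± 0.14, adjusted p = 0.037), and Snrpa1 of the U2 snRNP (0.32 ± 0.09, adjusted p = 0.043) rose, and the neuronal Snrpn fell by 0.31 (adjusted p = 0.0099), while none in the other lists was called. The Sm and U snRNP list had a median change of 0.05 in WT and 0.16 in KO, with 20 and 24 of 28 above 0.

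Short RNAs under other symbols were read for comparison. 19 rows annotated as snRNA but not named Rnu had a median change of 0.93 between sides in WT, with 9 called higher and none lower (5.2% and 5.4% of all genes), and 16 such rows had a median of -0.16 in KO, none called. Many of these rows share a length of 191, 164 or 141 nt. Whether they share reads was not tested, so the 9 calls are not counted as separate observations. Some had a large SE, as Gm22068 (8.14 ± 4.79) and Gm22317 (4.00 ± 5.30) in WT. 24 snoRNA and scaRNA rows under other symbols had a median of 0.15 in WT with 1 called higher, and 29 such rows had a median of -0.08 in KO, none called. On the CL side the snRNA rows stood at a median of 0.70 between genotypes, the snoRNA and scaRNA rows at 0.41 and 22 mitochondrial tRNAs at 0.51 with 22 above 0, none of them called. Between genotypes on the PI side these tRNAs had a median of 0.34, with 21 of 22 above 0. The 7SL RNAs Rn7s1, Rn7s2 and Rn7s6 went the other way on the CL side, at a median of -0.19 with 3 of 3 below 0. Between sides in KO their median was 0.31, with Rn7s2 called higher (0.50 ± 0.15, adjusted p = 0.048), where 5.11% of all genes were. The Y RNAs Rny1 and Rny3 stood at 0.73 and 0.85 on the CL side, uncalled. Rmrp, the RNA of RNase MRP, is listed by its gene identifier alone and so is no member: it differed between sides by 0.36 ± 0.07 in WT (adjusted p = 0.0042) and by 0.16 ± 0.10 in KO (adjusted p = 0.36).

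Cell type markers moved with side as well, given here as summed levels. 6 neuronal markers summed to 5669 to 6178 CPM in CL WT against 4854 to 5449 in PI WT, and to 5725 to 5961 CPM in CL KO against 4677 to 5247 in PI KO. 4 astrocyte markers summed to 6756 to 7155 CPM in CL WT against 5820 to 6185 in PI WT, and to 6768 to 7255 CPM in CL KO against 5601 to 6300 in PI KO. 4 oligodendrocyte markers summed to 1967 to 2143 CPM in CL WT against 1335 to 1923 in PI WT, and overlapped in KO (1572 to 2127 CPM in CL, 1474 to 1695 in PI). These sums were lower in PI, apart from the overlap named, but the neuronal and astrocyte sums join opposite changes. Of the neuronal markers, 3 of 6 in WT and 1 of 6 in KO were above 0, and of the astrocyte markers 2 of 4 in each genotype. The astrocyte sums rest mostly on Slc1a2, at 12.71 log2 CPM in CL WT, where Gja1, the next, was at 7.33. Slc1a2 stood at -0.23 ± 0.06 in WT (adjusted p = 0.021) and at -0.23 ± 0.07 in KO (adjusted p = 0.057). Snap25, Syt1 and Gja1 were called lower in both genotypes. Aqp4 was called higher in WT (0.27 ± 0.06, adjusted p = 0.012) and KO (0.41 ± 0.09, adjusted p = 0.014), and Gad2 in KO (0.38 ± 0.07, adjusted p = 0.0065).

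4 microglial markers summed to 114 to 125 CPM in CL WT against 116 to 137 in PI WT, and to 125 to 136 CPM in CL KO against 132 to 159.8 in PI KO, sums that overlap and that join opposite changes. P2ry12 fell by 0.82 in WT and by 0.75 in KO (adjusted p = 0.014 and 0.0030), and Cx3cr1 rose by 0.71 and 0.64 (adjusted p = 0.039 and 0.019). Of 4 striatal markers, Drd2 and Adora2a are not listed, and Drd1 and Ppp1r1b summed to 44.4 to 51.7 CPM in CL WT against 59.3 to 79.9 in PI WT, and to 41.6 to 52.2 CPM in CL KO against 53.9 to 77.0 in PI KO. Ppp1r1b rose in WT (0.63 ± 0.15, adjusted p = 0.016) and stood at 0.50 ± 0.19 in KO (adjusted p = 0.13); both genes are also expressed outside the striatum. None of 5 neutrophil and monocyte markers (S100a8, S100a9, Ly6g, Ccr2 and Itgal) is listed in the tables that compare PI with CL. S100a8 and S100a9 are listed between genotypes on the PI side, at 1.16 ± 0.46 and 0.77 ± 0.50 (adjusted p = 0.85 and 0.88). The part of cell composition in the changes of the small RNAs was not tested.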

How the data were processed

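The authors deposited 4 tables of log2 CPM, 1 for each comparison of 2 groups, with reads assigned on mm10 per the submitters' processing notes; the aligner, counter, strand setting and gene filter are not given in the sources used here. A value under 1 read stands at a floor that differs between tables. In each group of 6 the outer values are tied in every gene, so 4 of 6 are recovered. Whole-read steps gave the depth: 77.6% to 90.2% of low values were whole within 0.03 read, where chance gives 6%. Per gene, means of 4 values were compared with a moderated trimmed-mean test (R 4.3.3, limma 3.58.1, Winsorized sums of squares, trend, two-sided, Benjamini-Hochberg over the table), which was checked on simulated data. How its prior was weighed was changed after the first calls were seen. Same-numbered CL and PI libraries come from 1 animal per the labels; the correlation of their deviations was -0.028 to 0.24 in WT and -0.0038 to 0.22 in KO.

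Members and lists were chosen with earlier results of these data known. Genes named are all called members, Rn7sk, Rpph1, Rmrp and Terc, the 2 most positive and 2 most negative of each class between sides, the 3 of smallest p between genotypes, the highest of each class per length, and Snhg genes with their enclosed small RNAs. Alternatives were limma on the deposited values, a prior with no trend, centring each group, a minimum of 1 CPM, a pseudocount of 0.5 CPM, pairing, and leaving out each library. Members were matched to GENCODE M21 by symbol (38), by an older symbol (1) or through RefSeq positions (6). Nothing in the labels says that animals were pooled. 1 host gene is not reported by name here.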

Additional observations from a re-analysis of the deposited data

How the results depend on the processing

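The choice of test moved the counts of called members most. limma on the deposited values, whose tied values understate the spread, called 23 members for PI WT vs CL WT against 8, 17 for PI KO vs CL KO against 1, 10 for PI KO vs PI WT against 0, 15 for CL KO vs CL WT against 0 and 15 for the interaction against 0. With the replicate block in limma these counts were 25, 17, 9 and 14. The paired trimmed-mean test gave 4 for PI KO vs CL KO and left the other counts within 1.5 times or at 0; between genotypes the same number marks different animals. A prior with no trend gave 0 for PI KO vs CL KO, centring each group gave 3, and a pseudocount of 0.5 CPM gave 1 for CL KO vs CL WT. With each library left out in turn, 5 to 9 members were called for PI WT vs CL WT, 0 to 5 for PI KO vs CL KO, 0 to 2 for CL KO vs CL WT and 0 for PI KO vs PI WT and the interaction. For the fits with a library left out and with the replicate block in limma, the share of all genes called is not given here. Snhg3 was not called with a prior of no trend, with centring or with pairing, nor Snord94 with centring. The cause of these moves was not tested, apart from the ties. No called value changed sign under these alternatives. Medians of the classes moved by less than the median SE of their members with centring, a minimum of 1 CPM and a pseudocount. Leaving out a library, an alternative added for these medians after seeing the data, moved them further: between genotypes on the PI side the box H/ACA median, -0.01 with all libraries, ran from -0.15 without PI KO replicate 1 to 0.25 without PI KO replicate 4 or 6, and the median over all members, 0.01, from -0.09 to 0.06. Between sides the median over all members ran from 0.18 to 0.25 in WT and from -0.14 to -0.01 in KO, and that of the scaRNAs in KO, 0.03, from -0.05 to 0.10. At this depth a member under about 1 CPM rests on few reads.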
